A study of Schmidtea mediterranea with 24 samples.

Results

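The tails of *control(RNAi)* planarians at 12 hours post amputation (hpa) were compared with those at 6 hpa, to ask how the transcriptome of 1 body region changed with time after the cut. The members are 6 of the 24 libraries of the series, *control(RNAi)* tails at 12 hpa (replicates A, B and C) and *control(RNAi)* tails at 6 hpa (replicates A, B and C), chosen by their labels alone. All animals were *Schmidtea mediterranea* of the clonal asexual strain CIW4, fed *gfp* double-stranded RNA 3 times as the control for RNA interference, kept in high salt, irradiated with 60 Gy and amputated 24 hours later. Each tail library pooled 15 fragments. The 12 hpa tails were therefore taken 36 hours and the 6 hpa tails 30 hours after irradiation, so that time after amputation and time after irradiation cannot be told apart. *control(RNAi)* intact animals and *control(RNAi)* tails at 24 hpa, 3 libraries each, are given beside them as levels without a test, and *yki(RNAi)* tails at 12 and 6 hpa, whose animals were fed *yki* double-stranded RNA and otherwise treated alike, were used to ask whether the change with time differed.

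A planarian wound first switches on genes that respond to injury of any kind, among them immediate early transcription factors and stress genes, and later genes that set the identity of the missing tissue. *notum* encodes a secreted enzyme that inactivates WNT ligands and is known for its induction at wounds that face the anterior, as the cut face of a tail does. Regeneration draws on stem cells, the neoblasts, which carry *piwi-1* and are lost after irradiation. Their post-mitotic offspring in the epidermal lineage carry *prog-1* and *prog-2* for a short time before they mature, so that these transcripts decline once no new progeny are made.

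The 6 libraries held 18.3 to 23.6 M counts assigned to transcripts. Levels are given in CPM, counts scaled to the TMM-adjusted size of the library. Replicates at 6 hpa differed more than those at 12 hpa. The chi-square per degree of freedom between 2 replicates was 2.13 to 3.39 at 12 hpa and 7.35 to 17.9 at 6 hpa, all above sampling noise, so that each library was counted on its own. Replicates B and C at 6 hpa differed most (17.9), and replicate A differed more from C (10.2) than from B (7.35). Replicate C had a count for 64630 transcripts, against 67229 in replicate A and 69092 in replicate B. Replicate B at 6 hpa stood apart in some markers. *piwi-1* was at 2.62, 3.05 and 3.48 CPM in the 12 hpa tails and at 3.49, 13.9 and 4.55 CPM in 6 hpa replicates A, B and C. *ndk*, an FGF receptor-like gene of the head region, was at 2.89, 2.72 and 3.35 CPM in the 12 hpa tails and at 2.49, 7.79 and 2.2 CPM in 6 hpa replicates A, B and C. These are single genes. The 7 listed stem cell markers summed to 439 to 450.3 CPM at 12 hpa and to 488.3, 503.1 and 502.4 CPM in 6 hpa replicates A, B and C. Abundant members such as *piwi-3* make up much of this sum, so that a gain the size of that in *piwi-1* would barely show in it. The 4 muscle markers summed to 295.1 to 311.8 CPM at 12 hpa and to 325.1, 291.8 and 340.6 CPM in 6 hpa replicates A, B and C, so that replicate B did not stand above the others in muscle markers. Results without 6 hpa replicate B, replicate C or another single library are given beside some of those that they move.

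The labelled tissue was checked by region. The 5 listed Hox genes summed to 60.7 to 65.6 CPM in 12 hpa tails and 51.3 to 61.6 CPM in 6 hpa tails, against 15.8 to 19.0 CPM in intact animals. The 3 FGF receptor-like genes *ndk*, *ndk-3* and *ndk-4* summed to 10.1 to 11.7 CPM in 12 hpa tails and 10.2 to 17.8 CPM in 6 hpa tails, against 54.8 to 63.5 CPM in intact animals. Posterior genes were thus higher, and these anterior genes lower, in every tail library than in every intact library. *Cintillo*, a marker of sensory neurons in the head, had no count in any of the 6 tail libraries, which allows up to 0.127 to 0.164 CPM in a library (3 counts, counting error only).

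Between 12 and 6 hpa, 884 transcripts rose and 940 fell in *control(RNAi)* tails, out of 27345 tested (edgeR quasi-likelihood test, Benjamini-Hochberg adjusted p under 0.05 and an absolute log2 fold change of at least 0.32, the fold minimum). These are 3.23% and 3.44% of the tested transcripts, or 6.67% in both directions. At a minimum of 2-fold, 180 rose and 110 fell, or 0.658% and 0.402%. The median log2 fold change over all tested transcripts was 0.0033. An unadjusted p under 0.05 from edgeR was found for 7095 of the 27345, so that such a p alone was common. The libraries of the 2 times did not overlap for 1806 of the 1824 called transcripts (6.6% of those tested), and for 30.6% of all tested transcripts. Only 209 of the tested transcripts carry a gene name in the count table or in the study's gene tables, and 13 of these rose and 30 fell. In bulk RNA, a change in the number of cells of a type and a change in the RNA per cell cannot be told apart. The counts depended on the libraries. Without 12 hpa replicates A, B or C in turn, 446, 323 and 327 transcripts rose and 632, 425 and 497 fell. Without 6 hpa replicate A, 521 rose and 827 fell. Without 6 hpa replicate B 1125 rose and 1106 fell, and without 6 hpa replicate C 1124 rose and 1209 fell. With library totals in place of TMM factors, 1081 rose and 668 fell, so that rises made up 61.8% of the calls against 48.5% with TMM.

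**Figure D1:**
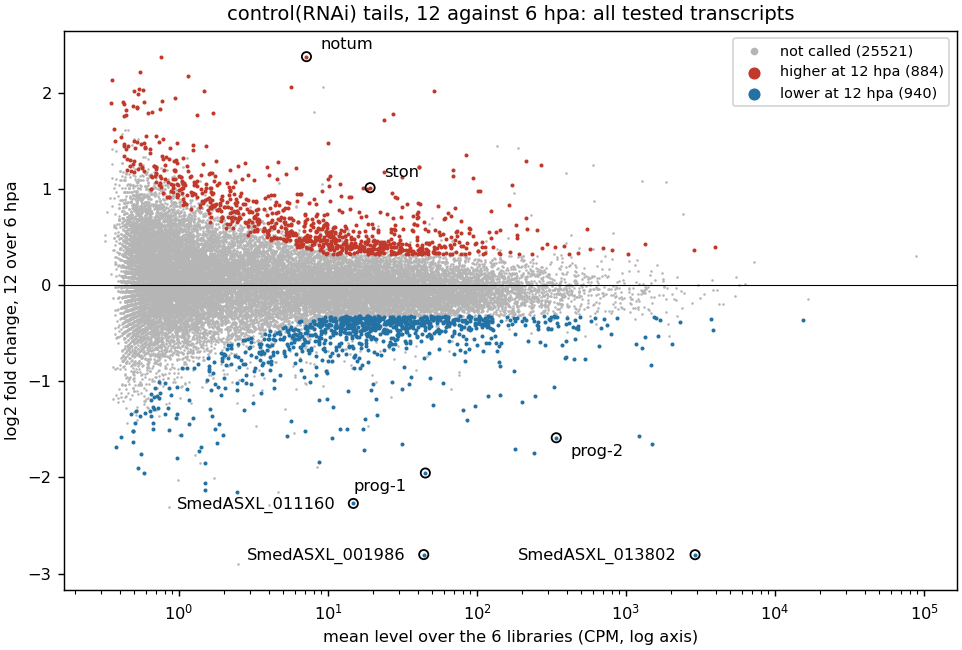
Log2 fold change, 12 over 6 hpa, of each of the 27345 tested transcripts against its mean level over the 6 libraries in CPM on a log axis. Red points are the 884 transcripts called higher at 12 hpa, blue points the 940 called lower and grey points those not called, with *notum* at the top of the named genes and SmedASXL_013802 far below the others at its level.

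The largest named rise was that of *notum* (SmedASXL_009180). It had 11.5, 13.2 and 11.4 CPM in the 12 hpa tails, against 2.01, 2.27 and 2.60 CPM in the 6 hpa tails. The groups lay far apart, with a 5.20-fold difference (log2 fold change 2.38 ± 0.13 SE, edgeR adjusted p = 3.54e-06). At 24 hpa *notum* was at 2.48, 2.68 and 3.70 CPM, and in intact animals at 1.19, 1.35 and 1.30 CPM. The 12 hpa libraries were thus the highest of the 4 groups in every replicate.

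Among 8 WNT receptors and antagonists, *notum* included, 2 rose (25%) and 1 fell (12.5%), beside 3.23% and 3.44% of all tested transcripts. *Smed-Fzd-4-2*, which encodes a Frizzled receptor, had 10.4, 11.9 and 13.5 CPM in 12 hpa tails and 9.81, 8.38 and 9.0 CPM in 6 hpa tails (log2 fold change 0.39 ± 0.11 SE, edgeR adjusted p = 0.046). *sfrp2*, which encodes a secreted Frizzled-related antagonist, had 6.25, 5.77 and 5.96 CPM in 12 hpa tails and 6.79, 9.29 and 8.20 CPM in 6 hpa tails (log2 fold change -0.44 ± 0.13 SE, edgeR adjusted p = 0.048). Both calls were close to the threshold and were lost without 12 hpa replicate B or C or 6 hpa replicate B (*Smed-Fzd-4-2* also without 6 hpa replicate A, *sfrp2* also without 12 hpa replicate A), with adjusted p up to 0.23 for *Smed-Fzd-4-2* and 0.17 for *sfrp2*. Both were also lost in DESeq2 and in the fit of all 12 *control(RNAi)* libraries, *sfrp2* further with library totals or a minimum of 1 CPM, and *Smed-Fzd-4-2* with DESeq2 size factors. Of 8 WNT ligands, 0 passed the edgeR test, 0 had an unadjusted p under 0.05 and 0 were called by DESeq2, with log2 fold changes between -0.37 (*wnt2-1*) and 0.46 (*wnt11-3*). *wnt1*, the ligand known to be induced at every wound and to mark the posterior pole, had 2.76, 3.43 and 3.26 CPM at 12 hpa against 2.82, 3.31 and 2.25 CPM at 6 hpa (log2 fold change 0.15 ± 0.18 SE, edgeR adjusted p = 0.65). *Evi/Wls*, which carries WNT proteins to the cell surface, had 55.1, 57.3 and 55.2 CPM in 12 hpa tails and 45.5, 42.8 and 48.8 CPM in 6 hpa tails. Its groups did not overlap and its adjusted p was 0.013 from edgeR, but its log2 fold change of 0.28 was under the fold minimum. *glypican-1*, a heparan sulfate carrier of the cell surface, also passed the adjusted p (0.022 from edgeR) but not the fold minimum, with a log2 fold change of -0.25. Of 5 genes of the β-catenin pathway inside the cell, *beta-catenin-like* alone passed the test, with 12.8, 10.5 and 11.9 CPM in 12 hpa tails and 9.09, 7.97 and 7.05 CPM in 6 hpa tails (log2 fold change 0.53 ± 0.12 SE, edgeR adjusted p = 0.014). That call was lost without 12 hpa replicate A or C, with the first lane alone and in the fit of all 12 *control(RNAi)* libraries. Over its alternatives the adjusted p was up to 0.12.

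**Figure D2:**
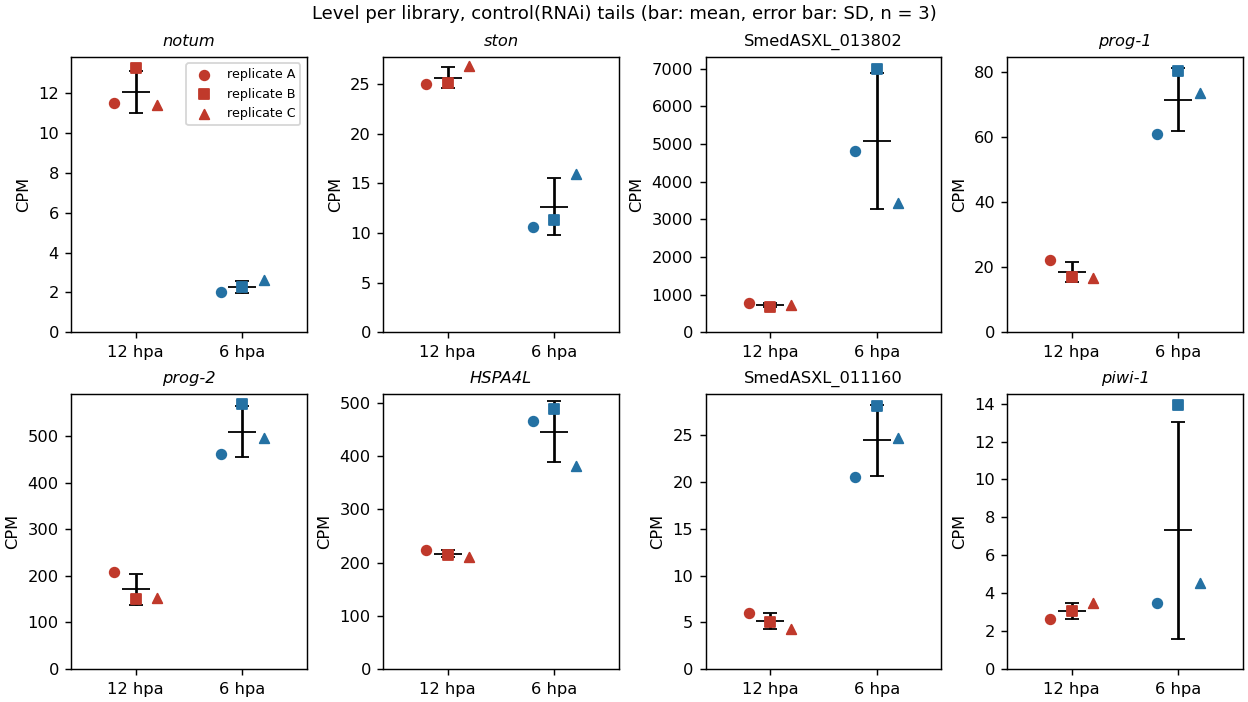
Level in CPM of 8 transcripts in each of the 3 libraries at 12 hpa (red) and at 6 hpa (blue), with the mean as a bar and the SD as an error bar. *notum* and *ston* were higher in every 12 hpa library, the *prog* genes, HSPA4L and both unnamed transcripts were lower in every 12 hpa library, and for *piwi-1* the spread at 6 hpa came from replicate B at 13.9 CPM.

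Of 97 wound-response genes taken from an earlier study, 94 were tested. At 12 hpa 8 of these were higher (8.51%) and 22 lower (23.4%), beside the 3.23% and 3.44% of all transcripts. At a 2-fold minimum 2 were higher and 10 lower, beside 0.658% and 0.402% of all tested transcripts. The median log2 fold change of the list was -0.08. Without 12 hpa replicate C, 5 were higher and 13 lower. In the fit of all 12 *control(RNAi)* libraries 6 were higher and 10 lower. *ston*, one of the 5 epidermal genes of that list, rose with *notum*. It had 25.0, 25.2 and 26.9 CPM at 12 hpa against 10.6, 11.4 and 16.0 CPM at 6 hpa (log2 fold change 1.02 ± 0.12 SE, edgeR adjusted p = 0.00058). At 24 hpa it was at 2.42, 2.53 and 1.99 CPM and in intact animals at 2.29, 1.71 and 1.87 CPM, so that these levels overlapped.

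Unnamed members of the list fell as well. SmedASXL_000044 had 8.77, 9.37 and 8.13 CPM in 12 hpa tails and 19.8, 17.9 and 18.2 CPM in 6 hpa tails (log2 fold change -1.10 ± 0.087 SE, edgeR adjusted p = 3.16e-05). SmedASXL_077810, with means of 2.74 CPM at 12 hpa and 7.92 CPM at 6 hpa (log2 fold change -1.57), lost its call without 12 hpa replicate C. SmedASXL_082442, with means of 0.53 CPM at 12 hpa and 1.37 CPM at 6 hpa (log2 fold change -1.38), lost its call without 12 hpa replicate A or C. It also lost it with the first lane alone and in the fit of all 12 *control(RNAi)* libraries. SmedASXL_009408, the 1 called gene among the 14 muscle genes of the list, fell with a log2 fold change of -0.50 (edgeR adjusted p = 0.0033). Its call was lost in the fit of all 12 *control(RNAi)* libraries (edgeR adjusted p = 0.057). *SVOPL*, an epidermal gene of the list that resembles a transporter, fell with a log2 fold change of -0.39. Its call was lost without any 12 hpa replicate or 6 hpa replicate C, and in the fit of all 12 *control(RNAi)* libraries.

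The other rises of the earlier-study list were smaller. The gene for a disintegrin and metalloproteinase with thrombospondin motifs, an enzyme of the extracellular matrix, had 83.8, 89.3 and 87.6 CPM in 12 hpa tails and 53.5, 65.6 and 56.3 CPM in 6 hpa tails (log2 fold change 0.56, edgeR adjusted p = 0.0012). Carboxypeptidase O, a peptidase, had 65.8, 81.2 and 69.2 CPM in 12 hpa tails and 50.2, 50.2 and 52.8 CPM in 6 hpa tails (log2 fold change 0.48, edgeR adjusted p = 0.0029). *innexin-1*, which encodes a gap junction protein, had 4.23, 4.08 and 4.18 CPM in 12 hpa tails and 2.25, 2.40 and 3.35 CPM in 6 hpa tails (log2 fold change 0.64, edgeR adjusted p = 0.034). The call for *innexin-1* was lost in 8 of 14 alternatives, among them the loss of any 12 hpa replicate or of 6 hpa replicate A or B. The call for *5B07 rhomboid-like protein* (log2 fold change 0.46, edgeR adjusted p = 0.012), a presumed membrane protease, was lost without 12 hpa replicate A or C. Among the genes the study lists as new and wound-induced, *death domain containing* had 34.7, 34.6 and 32.0 CPM at 12 hpa and 23.7, 20.6 and 17.8 CPM at 6 hpa (log2 fold change 0.69 ± 0.093 SE, edgeR adjusted p = 0.0012). It was at 40.2, 37.2 and 33.3 CPM at 24 hpa and at 8.73, 9.67 and 7.91 CPM in intact animals. *RIK* (log2 fold change 0.77, adjusted p = 0.014) and *D6RI25* (log2 fold change 0.63, adjusted p = 0.013, both from edgeR) lost their call without any one of the 12 hpa replicates. The call of *RIK* was also lost with the first lane alone and in the fit of all 12 *control(RNAi)* libraries.

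Genes for protein folding fell together. The list has only 3 members, chosen with earlier results of these data known. All 3 were lower at 12 hpa at the fold minimum of 0.32, in the test and under each other scaling, filter, fit or left-out library. At a 2-fold minimum 2 of them were lower. Of all tested transcripts, 3.44% were lower, and 0.402% at a 2-fold minimum. *HSPA4L*, a heat shock protein of the Hsp110 kind that assists Hsp70, had 223, 215 and 210 CPM in 12 hpa tails against 466, 490 and 381 CPM in 6 hpa tails (log2 fold change -1.05 ± 0.086 SE, edgeR adjusted p = 3.86e-05). *BAG3*, a co-chaperone of Hsp70, had 25.2, 22.1 and 21.9 CPM in 12 hpa tails and 47.4, 52.1 and 40.9 CPM in 6 hpa tails (log2 fold change -1.03 ± 0.093 SE, edgeR adjusted p = 8.22e-05). *HSPA5*, the chaperone of the endoplasmic reticulum, had 977, 940 and 881 CPM in 12 hpa tails and 1288, 1404 and 1556 CPM in 6 hpa tails (log2 fold change -0.61 ± 0.073 SE, edgeR adjusted p = 0.00058). At 24 hpa *HSPA5* was at 453, 524 and 487 CPM and in intact animals at 592, 427 and 391.6 CPM.

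Several metabolic enzymes were lower as well. The list of 13 was put together after the values had been seen, and 6 of its members fell (46.2%) and 1, carboxypeptidase O, rose (7.69%), beside 3.44% and 3.23% of all tested transcripts. In the fit of all 12 *control(RNAi)* libraries 3 fell. *PANK4*, of the pantothenate kinase family, had 21.9, 19.7 and 18.8 CPM in 12 hpa tails against 44.9, 34.2 and 48.0 CPM in 6 hpa tails (log2 fold change -1.08 ± 0.11 SE, edgeR adjusted p = 0.00020). *SULT1C3*, a sulfotransferase, had 2.3, 3.59 and 2.57 CPM in 12 hpa tails and 4.97, 5.12 and 7.4 CPM in 6 hpa tails (log2 fold change -1.07 ± 0.20 SE, edgeR adjusted p = 0.0074), and its call was lost without 12 hpa replicate C (adjusted p up to 0.053). *CYP2J2*, a cytochrome P450, had 45.0, 34.9 and 37.5 CPM in 12 hpa tails and 79.0, 71.5 and 85.3 CPM in 6 hpa tails (log2 fold change -1.01 ± 0.090 SE, edgeR adjusted p = 7.72e-05). In the fit of all 12 *control(RNAi)* libraries its adjusted p was 0.33, and the intact libraries of this gene ranged from 3.05 to 105.5 CPM. *L3HYPDH*, which dehydrates hydroxyproline, fell with a log2 fold change of -0.85 (edgeR adjusted p = 0.0044). *ODBA*, a subunit of the branched-chain keto acid dehydrogenase, had 42.6, 40.2 and 38.1 CPM in 12 hpa tails and 60.6, 61.9 and 52.6 CPM in 6 hpa tails (log2 fold change -0.55, edgeR adjusted p = 0.0013), with an adjusted p of 0.096 in the fit of all 12 *control(RNAi)* libraries.

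Of 8 tested early response factors, 1 fell (12.5%, beside 3.44% of all tested transcripts) and 0 rose in edgeR. An unadjusted p under 0.05 was found for 4 of them, beside 7095 of all 27345 tested transcripts. *EGR-like protein 1*, of the zinc finger family of early growth response factors, had 6.38, 9.80 and 5.92 CPM in 12 hpa tails and 11.7, 11.4 and 14.6 CPM in 6 hpa tails (log2 fold change -0.79 ± 0.17 SE, edgeR adjusted p = 0.013). Its call was lost without 12 hpa replicate A or C and in the fit of all 12 *control(RNAi)* libraries, with edgeR adjusted p up to 0.29. *jun-1*, an AP-1 factor, had 32.6, 36.2 and 36.2 CPM at 12 hpa against 28.3, 27.6 and 28.4 CPM at 6 hpa, and was under the fold minimum with a log2 fold change of 0.31 (edgeR adjusted p = 0.011). It passed with library totals, with the first lane alone and without 12 hpa replicate A, where its log2 fold change was up to 0.35. Its AP-1 partner *fos-1* had 94.1, 97 and 91.6 CPM in 12 hpa tails and 107.7, 103.5 and 100.5 CPM in 6 hpa tails (log2 fold change -0.15, edgeR adjusted p = 0.098). *early growth response-3* (log2 fold change -0.82, adjusted p = 0.19) and *early growth response-4* (log2 fold change -0.08, adjusted p = 0.48, both from edgeR) did not pass the test. The named signalling genes of the wound that were looked up in every case did not pass either. The log2 fold changes were -0.12 for *follistatin*, -0.09 for *inhibin-1*, 0.08 for *notch 1*, 0.09 for *delta-like 4*, 0.11 for *noggin-like protein 1* and 0.12 for *Sp5*, with adjusted p from 0.38 to 0.60 from edgeR. *hadrian*, an epidermal wound gene, overlapped between the times, with 80.3, 91.6 and 77.1 CPM at 12 hpa and 77.5, 141.1 and 53.7 CPM at 6 hpa. *tyrosine kinase-2* fell just past the fold minimum (log2 fold change -0.33, edgeR adjusted p = 0.025). Its call was lost in 8 of 14 alternatives, among them the loss of any 12 hpa replicate or of 6 hpa replicate C and the fit of all 12 *control(RNAi)* libraries. *yki* itself had 103.4, 96.9 and 104.6 CPM at 12 hpa and 85.5, 89.3 and 82.8 CPM at 6 hpa, with a log2 fold change of 0.23 under the fold minimum (edgeR adjusted p = 0.024).

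**Figure D3:**
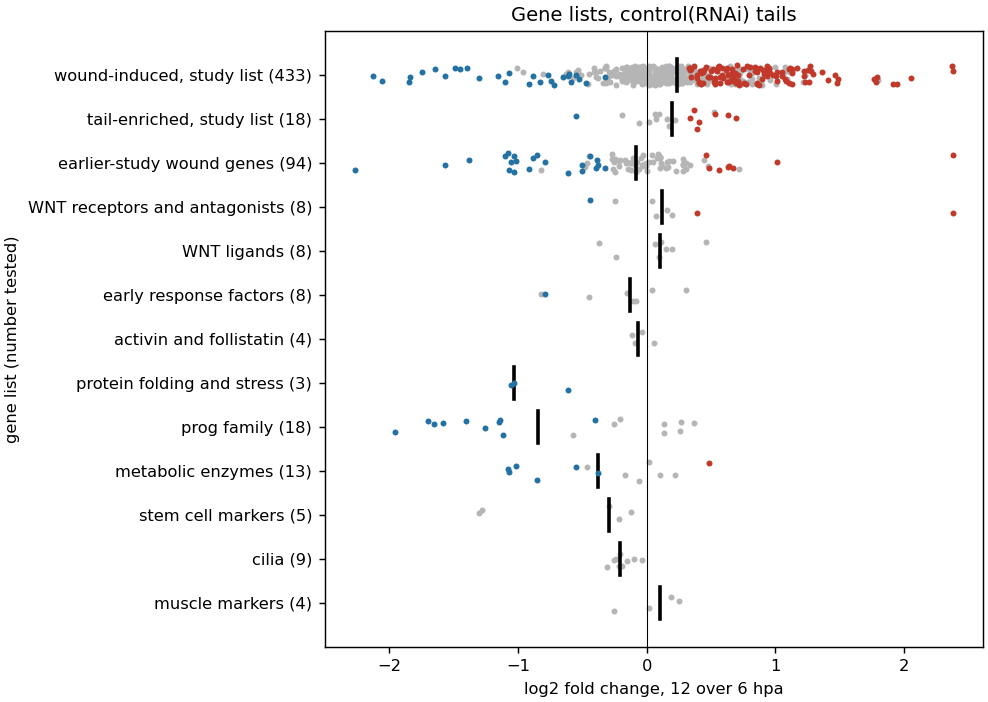
Log2 fold change, 12 over 6 hpa, of every tested member of 13 gene lists, with the number tested in parentheses, the median of each list as a black bar, and red and blue points for members called higher and lower. The 3 folding genes and 10 of 18 *prog* transcripts were called lower. The study's own wound-induced list, which was chosen on libraries that include these, has 113 members called higher and 28 called lower. Of all tested transcripts, 3.23% were called higher and 3.44% lower.

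The study's own list of 438 wound-induced transcripts was chosen on tails against intact animals, with these same tail libraries, and is not independent evidence of a direction. Of its 433 tested members, 113 were higher (26.1%) and 28 lower (6.47%) at 12 hpa, with a median log2 fold change of 0.24. Over all tested transcripts these shares were 3.23% and 3.44%. Its largest unnamed changes included SmedASXL_001593, with 9.37, 7.68 and 10.1 CPM in 12 hpa tails and 2.06, 2.27 and 2.15 CPM in 6 hpa tails (log2 fold change 2.06 ± 0.14 SE, edgeR adjusted p = 1.69e-05), and, at low levels, SmedASXL_063771 (log2 fold change 1.95), SmedASXL_053529 (log2 fold change -2.13) and SmedASXL_004833 (log2 fold change -2.06). Without 12 hpa replicate B the number higher on the whole list was 52, and without replicate C it was 62. In DESeq2 it was 66, and in the fit of all 12 *control(RNAi)* libraries 56. The study lists 18 genes as new, wound-induced and tail-enriched, a choice that also used these tail libraries. Of these 18, 7 were higher (38.9%) and 1, *ODBA*, lower (5.56%), beside 3.23% and 3.44% of all tested transcripts. The 7 were *death domain containing*, *D6RI25*, *beta-catenin-like*, SmedASXL_019398, *Smed-Fzd-4-2*, *red* and the Hox gene *Smed-Post-2C*. *Smed-Post-2C* had 13.8, 12.3 and 13.0 CPM in 12 hpa tails and 10.5, 10.7 and 9.35 CPM in 6 hpa tails (log2 fold change 0.34 ± 0.092 SE, edgeR adjusted p = 0.037). Its call was lost in 9 of 14 alternatives, among them the loss of any 12 hpa replicate or of 6 hpa replicate A or C. DESeq2 and the fit of all 12 *control(RNAi)* libraries did not call it either. Of the 13 tested new wound-induced genes that are not tail-enriched, 3 were higher (23.1%), *RIK*, SmedASXL_010177 and SmedASXL_061347. The number of the 18 called higher fell to 2 without 12 hpa replicate B, 1 without 12 hpa replicate C and 4 without 6 hpa replicate A. It was 4 in DESeq2 and 3 in the fit of all 12 *control(RNAi)* libraries. Of the 13, 2 were higher in DESeq2 and 0 in that fit.

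Many epidermal progenitor transcripts fell. Of 18 transcripts named *prog*, all of them tested, 10 were lower at 12 hpa (55.6%), 9 of them by at least 2-fold, and 0 were higher. Of all tested transcripts, 3.44% were lower, 0.402% by at least 2-fold, and 3.23% were higher. At the fold minimum of 0.32 the number lower was 10 under every other scaling, filter, fit or left-out library. The number higher was 2 without 6 hpa replicate C, and 1 with library totals or without a low-count filter. *prog-1* (SmedASXL_011484) had 22.1, 16.9 and 16.7 CPM in 12 hpa tails against 60.8, 80.0 and 73.4 CPM in 6 hpa tails, a 3.87-fold difference (log2 fold change -1.95 ± 0.12 SE, edgeR adjusted p = 5.98e-06). At 24 hpa it was at 0.754, 0.506 and 1.248 CPM, and in intact animals, which were taken 24 hours after irradiation, at 44.9, 91.0 and 103.1 CPM. *prog-2* (SmedASXL_073532) had 208.8, 150.5 and 153.2 CPM in 12 hpa tails and 461.3, 569.6 and 497.0 CPM in 6 hpa tails, a 3.00-fold difference (log2 fold change -1.59 ± 0.12 SE, edgeR adjusted p = 2.44e-05). At 24 hpa it was at 16.7, 10.2 and 20.7 CPM and in intact animals at 211.6, 328.7 and 349.7 CPM.

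The family split in its behaviour. *prog-2a*, *prog1a*, *prog2b*, *prog2e*, *prog2c*, *prog2d* and *prog1c* fell with *prog-1* and *prog-2*, with log2 fold changes from -1.70 to -1.12. *prog-1f* fell by less, with a log2 fold change of -0.40 (edgeR adjusted p = 0.0044). The 8 others were not called. An adjusted p under 0.05 from edgeR was found for 13 of the 18, so that some of the 8 missed only the fold minimum. The libraries of the 2 times did not overlap for 17 of the 18, beside 30.6% of all tested transcripts. *prog-1b* had 306.3, 293.3 and 302.0 CPM in 12 hpa tails and 269.7, 262.1 and 283.8 CPM in 6 hpa tails, and *prog-1e* had 234.1, 230.6 and 231.1 CPM in 12 hpa tails and 208.5, 198.1 and 224.4 CPM in 6 hpa tails. The log2 fold changes of the 8 ran from -0.57 (*prog2g*) to 0.37 (*prog-1i*). *prog-1f* and these members were singled out after their values had been seen. Reads of close copies in this family can be shared between transcripts, and how the counting divided them is not stated, so that the values of single members are uncertain. Summed over the 18, the level was 1903 to 2142 CPM in 12 hpa tails and 2830 to 3167 CPM in 6 hpa tails, 1242 to 1326 CPM at 24 hpa and 1808 to 2372 CPM in intact animals. *vim-1*, a later marker of the same lineage, and *mex3-1*, an RNA-binding regulator of progenitor fates, were also lower (log2 fold changes -0.56 and -0.37, adjusted p = 0.0017 and 0.0038 from edgeR), and were likewise picked out after their values had been seen.

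**Figure D4:**
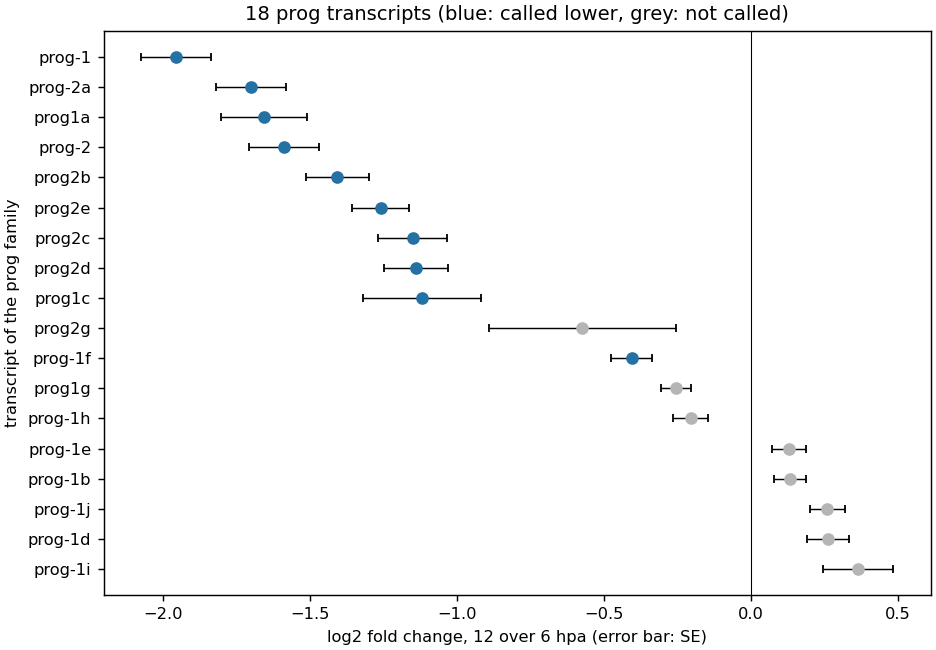
Log2 fold change, 12 over 6 hpa, of the 18 transcripts named *prog*, with the SE as an error bar. The 10 called lower are blue and span -1.95 to -0.40, while the 8 not called are grey and span -0.57 to 0.37.

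Of 5 tested stem cell transcripts, 0 passed both thresholds in edgeR and 0 were called by DESeq2. All 5 had negative log2 fold changes, from -1.30 to -0.12, and an unadjusted p under 0.05, beside 7095 of all 27345 tested transcripts. Only 1, *piwi-3*, had an adjusted p under 0.05. *piwi-1* had a log2 fold change of -1.28 (± 0.43 SE, edgeR adjusted p = 0.078), which rested on replicate B at 6 hpa. Without that library its log2 fold change was -0.40. *piwi-1* passed both thresholds without 6 hpa replicate A or C and without a low-count filter, where 3 stem cell transcripts were called lower. *piwi-3*, another PIWI gene of the stem cells, had 177.0, 171.5 and 168.3 CPM in 12 hpa tails and 197.1, 200.8 and 198.9 CPM in 6 hpa tails (log2 fold change -0.22, edgeR adjusted p = 0.020, under the fold minimum). Of 9 tested cilia genes, 4 muscle genes and 7 Hedgehog genes, 0 passed both thresholds in edgeR. An unadjusted p under 0.05 was found for 5 cilia, 1 muscle and 3 Hedgehog genes, again beside 7095 of all 27345. DESeq2 called 1 cilia gene lower and 0 of the others. Of 3 tested neuron markers, 1 fell (33.3%, beside 3.44% of all tested transcripts) and 0 rose. It was *elav-2*, an RNA-binding protein of neurons, with 27.6, 30.6 and 31.7 CPM in 12 hpa tails and 36.2, 37.9 and 44.2 CPM in 6 hpa tails (log2 fold change -0.41 ± 0.081 SE, edgeR adjusted p = 0.0094). Its call was lost without 12 hpa replicate A and in the fit of all 12 *control(RNAi)* libraries, with edgeR adjusted p up to 0.17. Of 10 Mediator subunits and 7 tested spondin-like transcripts, lists added after the values had been seen, 0 passed both thresholds in edgeR. An unadjusted p under 0.05 was found for 3 Mediator subunits and 2 spondin-like transcripts, and DESeq2 called 0 and 1 of them.

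Among called transcripts of at least 1 CPM at the higher time whose libraries did not overlap, the largest falls were in transcripts without a name. SmedASXL_013802 had 790, 681 and 729 CPM in 12 hpa tails against 4812, 6988 and 3426 CPM in 6 hpa tails, a 6.98-fold difference (log2 fold change -2.80 ± 0.20 SE, edgeR adjusted p = 1.79e-05). The 6 hpa replicates were widely spread, and each still lay above every 12 hpa library. At 24 hpa it was at 1842, 1215 and 1473 CPM and in intact animals at 3783, 1294 and 1581 CPM. SmedASXL_001986 had 12.5, 9.58 and 11.1 CPM in 12 hpa tails and 79.8, 92.8 and 57.5 CPM in 6 hpa tails (log2 fold change -2.80 ± 0.16 SE, edgeR adjusted p = 4.57e-06). The largest unnamed rises were of low level. SmedASXL_071300 had 2.02, 1.8 and 1.87 CPM in 12 hpa tails and 0.287, 0.498 and 0.450 CPM in 6 hpa tails (log2 fold change 2.18, edgeR adjusted p = 0.00063), and SmedASXL_027919 had 0.919, 1.36 and 1.52 CPM in 12 hpa tails and 0.191, 0.272 and 0.250 CPM in 6 hpa tails (log2 fold change 2.37, edgeR adjusted p = 0.0021).

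**Figure D5:**
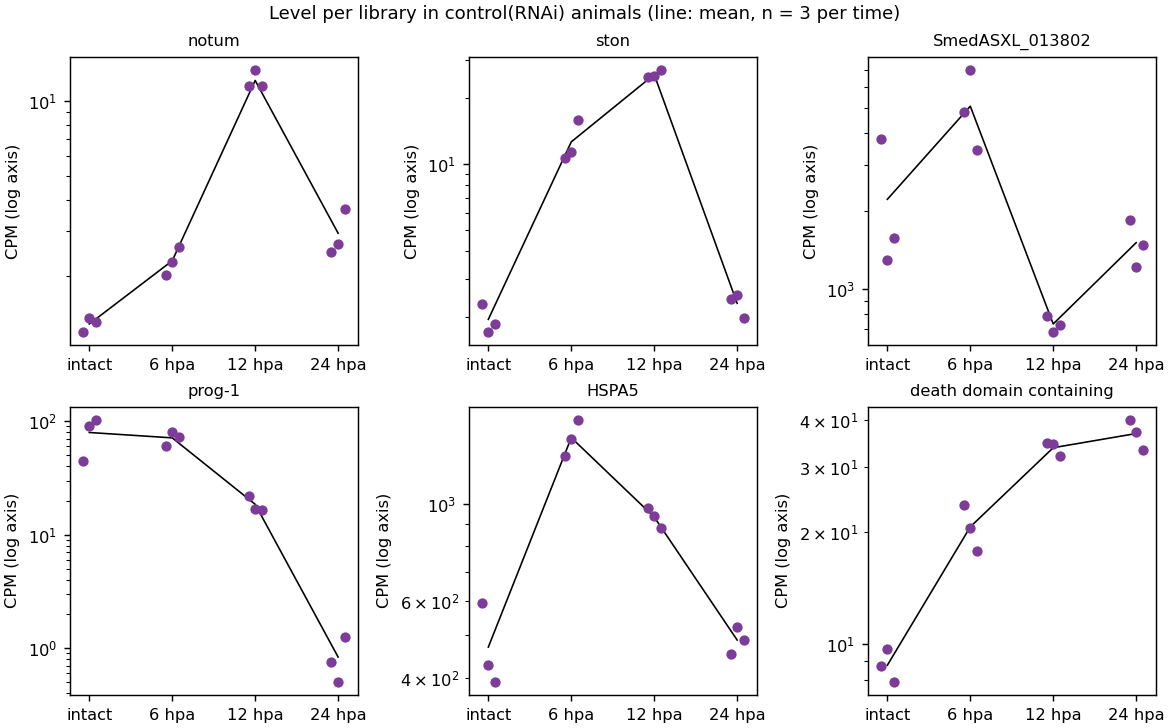
Level per library in CPM on a log axis in *control(RNAi)* intact animals and tails at 6, 12 and 24 hpa, with a line through the means of the 3 libraries. *notum* and *ston* are highest at 12 hpa, HSPA5 and SmedASXL_013802 at 6 hpa, *prog-1* is lowest at 24 hpa, and *death domain containing* is about as high at 24 hpa as at 12 hpa.

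Levels at 24 hpa were set beside the change between 6 and 12 hpa as a description only, since the choice of transcripts by the 12 and 6 hpa libraries shapes it. Replicate C at 24 hpa stood apart in some lists. The 5 epidermal genes of the earlier-study list summed to 787.8, 972 and 168.9 CPM in 24 hpa replicates A, B and C. The whole list summed to 3643, 3847 and 2750 CPM. The 4 muscle markers summed to 246.9, 219.3 and 241.1 CPM, with replicate C between the others. The means below include replicate C. Of the 884 transcripts that rose, the 24 hpa mean was above both earlier means for 497, between them for 327 and below both for 60. *notum* was among those between, and *ston* among those below. Of the 940 that fell, the 24 hpa mean was below both for 586, between for 306 and above both for 48. *prog-1* and *prog-2* were among those below both, and SmedASXL_013802 was among those between.

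The change with time was also compared with that in *yki(RNAi)* tails. The interaction of 12 against 6 hpa with the RNAi condition, tested over 30484 transcripts in 12 libraries, was called for 3 (0.00984%) with no fold minimum, and 2933 had an unadjusted p under 0.05. *notum* rose by less in *yki(RNAi)* tails, with 6.86, 5.39 and 7.19 CPM at 12 hpa and 3.43, 3.39 and 3.07 CPM at 6 hpa. Its log2 fold change was 0.98 in *yki(RNAi)* and 2.38 in *control(RNAi)* tails, a difference of -1.41 (± 0.20 SE, edgeR adjusted p = 0.019). SmedASXL_011160, one of the earlier-study wound genes, had 5.97, 5.06 and 4.31 CPM at 12 hpa and 20.5, 28.1 and 24.7 CPM at 6 hpa in *control(RNAi)* tails. In *yki(RNAi)* tails it had 31.2, 31.8 and 29.0 CPM at 12 hpa and 32.3, 34.1 and 41.5 CPM at 6 hpa. Its log2 fold change was -0.23 in *yki(RNAi)* and -2.27 in *control(RNAi)* tails, a difference of 2.03 (± 0.17 SE, edgeR adjusted p = 4.52e-05). SmedASXL_015000, named here because it is the third of only 3, had a log2 fold change of -0.76 in *yki(RNAi)* and 0.44 in *control(RNAi)* tails, a difference of -1.20 (± 0.15 SE, edgeR adjusted p = 0.0035). The count of 3 depended on the libraries, since without *control(RNAi)* 6 hpa replicate C it was 574 and without *yki(RNAi)* 6 hpa replicate C it was 30. For *prog-1* the log2 fold change was -2.63 in *yki(RNAi)* and -1.95 in *control(RNAi)* tails, and this difference did not pass the test (edgeR adjusted p = 0.18).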

How the data were processed

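Libraries were single-end, polyA-selected RNA-seq of pooled tail fragments or intact animals. The authors called bases with bcl2fastq 1.8.3, used Bowtie2 2.2.4 for alignment against SmedASXL transcripts. The deposited values are raw counts, given by transcript and by lane (2 lanes a library), and the counting tool is not given in the sources used here. Lanes were summed (chi-square per degree of freedom between lanes 0.99 to 1.02). A row without a transcript identifier (6.42% to 7.05% of counts) was left out. The deposited log2 fold changes and p-values of the authors' own comparisons, made with DESeq2, were not used. One damaged lane of a *yki(RNAi)* intact library, whose deposited values are not all whole counts, was not used, nor were the *yki(RNAi)* intact animals.

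Counts were fitted in edgeR 4.0.16 (R 4.3.3) with TMM factors, filterByExpr (minimum count 10, minimum total 15) and the quasi-likelihood F test, without a block, as the study fitted its comparisons pair-wise. The SE was derived from the fold change and its F statistic. All CPM of *control(RNAi)* libraries share 1 TMM scaling over the 12 *control(RNAi)* libraries, and the CPM of *yki(RNAi)* libraries come from the 12-library interaction fit. The biological coefficient of variation was 8.26%. The labels letter the replicates A to C, and the study describes them as biological. The method was tested on simulated data.

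The members, gene lists and named-gene rule were chosen with earlier results of these data known. Named genes were, among called transcripts of at least 1 CPM in the higher group and without overlap, the 10 largest named rises and falls and 2 unnamed each way, up to 6 called members per list, and a fixed set of wound and lineage genes. Names come from the count table and the study's gene tables, matched by identifier, for 250 of 82669 transcripts. Lists for Hedgehog, Mediator, spondin and metabolic genes were added after values were seen. The alternatives tried were other scalings, filters and fold minimums, a joint fit, DESeq2 1.42.0, a replicate term, the first lane alone and each library left out.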

Additional observations from a re-analysis of the deposited data

Results flagged for a closer look

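For 3 transcripts the change from 6 to 12 hpa differed between *yki(RNAi)* and *control(RNAi)* tails by the interaction test in edgeR. The difference in log2 fold change was 2.03 for SmedASXL_011160, -1.41 for *notum* and -1.20 for SmedASXL_015000 (adjusted p = 4.52e-05, 0.019 and 0.0035 from edgeR). For each of them the change in *control(RNAi)* tails was itself called, with log2 fold changes of -2.27, 2.38 and 0.44. The number of transcripts with such a difference rested on single libraries, as it was 574 without *control(RNAi)* 6 hpa replicate C.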

How the results depend on the processing

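Of 50 called transcripts that the naming rule took, with or without a gene name, 29 kept their direction and call at the fold minimum of 0.32 under each scaling, filter, fit and left-out library that gave a value, among them *notum*, *ston*, *prog-1*, *prog-2*, *HSPA4L*, *BAG3* and *HSPA5*. Of the rest, none reversed. The uncalled genes *noggin-like protein 1* and *hadrian* changed sign. Over the fits that leave out 1 library, the log2 fold change ranged from -0.0030 (without 6 hpa replicate A) to 0.19 for *noggin-like protein 1*, and from -0.42 to 0.33 (without 6 hpa replicate B) for *hadrian*. Leaving out 1 library gave 323 to 1125 transcripts higher and 425 to 1209 lower, and 2 to 574 for the interaction with RNAi. Without a low-count filter, 1617 were lower and 545 showed the interaction. In the fit of all 12 *control(RNAi)* libraries 378 were higher and 443 lower, and DESeq2 called 454 higher. DESeq2 called 1381 in all, of which 1217 were also called in edgeR. With no fold minimum 1669 were lower, and at a minimum of 2 there were 180 higher and 110 lower. The replicate letters were not taken as pairs in the main fit. The deviations of same-lettered libraries had correlations of 0.021, 0.082 and 0.043. Libraries of different letters were not compared in this way, so that these values do not decide whether the samples were paired. With the replicate block 928 were higher and 962 lower, and 4 showed the interaction. The block ended the calls of *sfrp2* and *Smed-Fzd-4-2* and gave *piwi-1* one (adjusted p = 0.056, 0.054 and 0.033 from edgeR), and 1 *prog* transcript was called higher with it. The causes of these shifts were not tested. Depth limits low transcripts most, since 3 counts in a library correspond to 0.127 to 0.164 CPM.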
